A study of Mus musculus with 4 samples.

Results

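Complement is a set of plasma and tissue proteins that tag targets and recruit leukocytes, and 9 of its genes were followed here in mouse colon: C1qa, C1qb, C1qc, C2, C3, C4b, Cfb, Cfi and C3ar1. The members were all non-control probes whose gene name in the array files was one of these symbols, which gave 10 probes, 2 for C3 and 1 for each of the other 8 genes. They stand among 22368 named genes on the array. The study asked how loss of Pla2g3, the gene for secreted phospholipase A2 group III, changes the colon in chemical carcinogenesis. RNA pooled from several mice was hybridized to 1 array for each of 4 groups: Pla2g3+/+ with vehicle, Pla2g3-/- with vehicle, Pla2g3+/+ with azoxymethane (AOM) and Pla2g3-/- with AOM. All mice were 42-week-old males on a B6.129 background of backcross generation 3. AOM, a carcinogen that induces colon tumors, was given intraperitoneally at 10 mg/kg weekly for 6 weeks, and tissue was taken 28 weeks after the last dose, whereas vehicle mice received saline. The labels call the AOM tissue colorectal cancer and the vehicle tissue normal colon, and give 3 to 5 mice per pool. A pool is 1 sample, so no ratio between a pair of arrays has a replicate check or a p-value. In the plots, WT stands for Pla2g3+/+ and KO for Pla2g3-/-.

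Complement is started by 3 routes. In the classical route, C1q, built from A, B and C chains, binds antibody or altered surfaces and switches on the proteases C1r and C1s, which cut C4 and C2 to form a C3 convertase. In the alternative route, factor B pairs with activated C3 to form a second convertase, and factor I cuts activated C3 and C4 to stop both. Macrophages are the main source of C1q in tissue, the liver makes most of the plasma components, and intestinal epithelium makes some C3 and factor B.

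Signal here means the intensity of a probe divided by the 75th percentile of all non-control spots on its array, which was 646, 649.8, 1309 and 1169 for Pla2g3+/+ vehicle, Pla2g3-/- vehicle, Pla2g3+/+ AOM and Pla2g3-/- AOM. The 4 values given for a gene keep this order, and they can be compared between arrays but not between probes. Feature Extraction, the array-reading software, called from 64.8% to 69.4% of the 43020 spots per array well above background and none saturated. All 9 genes except Cfi were well above background on every array. Pla2g3 itself went against the genotype labels: its brightest probe gave 0.531, 0.656, 0.232 and 1.40, so it was higher on both arrays labelled Pla2g3-/-, and all directions below follow the labels as given. Its other probes gave ratios of 1.06 and at least 2.31 with vehicle, and of 6.66 and 2.76 after AOM. Whether these probes lie in the deleted part of the gene is not given in the sources used here, and a probe outside it would not check the labels.

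The 3 C1q chains, which form the recognition molecule of the classical route, were highest in the Pla2g3+/+ AOM pool and lower in the Pla2g3-/- AOM pool. C1qa (probe on chromosome 4 of mm9, 136452409 to 136452468, minus strand) gave signals of 1.18, 1.71, 2.91 and 0.782. C1qb (chromosome 4, 136436578 to 136436637, minus strand) gave 1.20, 1.55, 2.51 and 0.900. C1qc (chromosome 4, 136445766 to 136445825, minus strand) gave 1.79, 2.73, 4.92 and 2.15. The order of the 4 pools was the same for C1qa and C1qb, with the Pla2g3-/- AOM pool lowest, whereas for C1qc the Pla2g3+/+ vehicle pool was lowest. The probes of C1qa and C1qb are shown because both lie well inside their messages and read different chains of 1 protein, so that their values come from separate sequences. They are written 5′ to 3′ as in the array files, with no base marked.
C1qa: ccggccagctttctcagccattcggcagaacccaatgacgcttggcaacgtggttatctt
C1qb: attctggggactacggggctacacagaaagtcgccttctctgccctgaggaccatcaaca

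After AOM, C1qa was 3.72-fold lower in the Pla2g3-/- pool than in the Pla2g3+/+ pool, C1qb 2.79-fold lower and C1qc 2.29-fold lower. Each chain is needed for the assembled protein, and the 3 genes are neighbours. With vehicle the chains differed the other way, by 1.45-fold, 1.29-fold and 1.53-fold higher in the Pla2g3-/- pool, short of 2-fold. In Pla2g3+/+ mice, AOM over vehicle was 2.46-fold for C1qa, 2.09-fold for C1qb and 2.75-fold for C1qc. In Pla2g3-/- mice the same contrast was lower for C1qa by 2.18-fold. Its log2 ratio was -0.28 without scaling between arrays and -0.92 with normexp background correction, both short of 2-fold. Here and below, normexp correction was always followed by quantile normalization. The log2 ratios of -0.79 for C1qb and -0.34 for C1qc turned to 0.06 and 0.51 without scaling.

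The C1qc probe was printed at 10 spots per array, which shows how well 1 hybridization repeats within itself. Its spots ran from 1.63 to 1.89 and from 2.58 to 2.90 on the vehicle arrays, and from 4.69 to 5.19 and from 2.06 to 2.40 on the AOM arrays. No 2 arrays overlapped. The SD between spots was 0.04 to 0.06 on the log2 scale, against a log2 ratio of -1.19 between the AOM arrays. This spread covers spotting and scanning only, not mice, pools or labelling, and 1 outlier spot was left out on the Pla2g3+/+ AOM array.

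**Figure D1:**
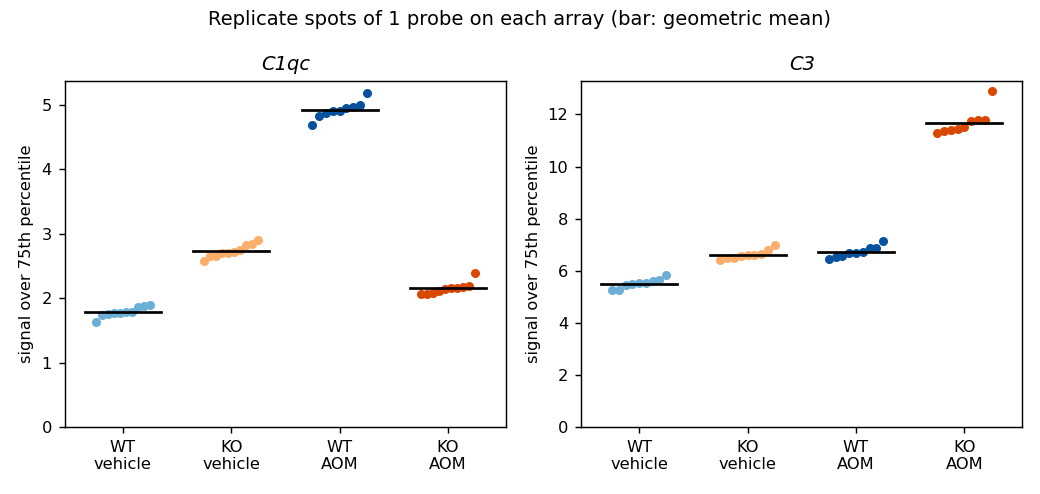
Replicate spots of the C1qc probe (left) and of the brighter C3 probe (right), as signal over the 75th percentile of the array on a linear axis; each point is 1 spot, sorted by size, and bars are geometric means. For C1qc the Pla2g3+/+ AOM spots, from 4.69 to 5.19, lie above all others, and for C3 the Pla2g3-/- AOM spots, from 11.3 to 12.9, do.

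C2 and C4b both supply the classical convertase, but their signals parted after AOM. C2, the protease subunit (chromosome 17, 34999575 to 34999634, minus strand), gave 0.581, 0.650, 2.25 and 0.773. It was high in the Pla2g3+/+ AOM pool, with the other 3 pools close together. The C2 ratio of AOM over vehicle was 3.87 in Pla2g3+/+ mice and 1.19 in Pla2g3-/- mice, and C2 was 2.91-fold lower in the Pla2g3-/- AOM pool than in its Pla2g3+/+ counterpart.

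C4b encodes C4, which supplies the surface-bound subunit (chromosome 17, 34865328 to 34865387, minus strand), and gave 1.72, 3.15, 6.31 and 9.07. It was higher in the Pla2g3-/- pool under both treatments, by 1.83-fold with vehicle and 1.44-fold after AOM. It was also higher after AOM in both genotypes, by 3.67-fold in Pla2g3+/+ and 2.88-fold in Pla2g3-/- mice. At this scaling, C4b was the one member past 2-fold upward with AOM in both genotypes. The array files give the C4b probe the transcripts of both C4b and its near-identical copy C4a, so the signal cannot be assigned to 1 of them. Its first 30 of 60 bases are shown for that reason.
C4b: cctcactggattagaggctctgctctacag

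C3, the central component cut by both convertases, was highest in the Pla2g3-/- AOM pool. The brighter probe (chromosome 17, 57343416 to 57343475, minus strand) gave 5.52, 6.62, 6.73 and 11.7. The Pla2g3-/- vehicle and Pla2g3+/+ AOM pools were close to each other, with spots from 6.41 to 7.01 and from 6.46 to 7.16, whereas the spots of the Pla2g3-/- AOM pool ran from 11.3 to 12.9. C3 was 1.73-fold higher in the Pla2g3-/- AOM pool than in the Pla2g3+/+ AOM pool, and 1.76-fold higher than in the Pla2g3-/- vehicle pool. AOM over vehicle in Pla2g3+/+ mice was 1.22-fold. None of these passed 2-fold, although the ratio of AOM over vehicle in Pla2g3-/- mice did so under quantile normalization, at a log2 value of 1.16.

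A second C3 probe (chromosome 17, 57343678 to 57343737, minus strand), also in the last part of the message, gave 3.58, 4.04, 4.10 and 6.83. Its ratio between the AOM pools was 1.67, beside 1.73 for the brighter probe, and its ratio of AOM over vehicle in Pla2g3-/- mice was 1.69. Both probes had the same order of pools. The sequence of the second probe is shown as the separate reading of C3.
C3: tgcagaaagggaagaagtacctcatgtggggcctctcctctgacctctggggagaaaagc

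Cfb, the gene for factor B, varied least among the 4 arrays. Its probe (chromosome 17, 34993502 to 34993858, minus strand) covers 357 genomic bases with 60 bases of message and so crosses an intron. The signals were 5.29, 4.83, 7.04 and 7.57, higher on both AOM arrays than on both vehicle arrays. AOM over vehicle was 1.33-fold in Pla2g3+/+ and 1.57-fold in Pla2g3-/- mice. Between the AOM pools the log2 ratio was 0.10, and it turned to -0.06 without scaling, to -0.01 with quantile normalization and to -0.02 with normexp background correction before it.
Cfb: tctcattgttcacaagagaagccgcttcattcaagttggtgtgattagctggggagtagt

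Cfi, the gene for factor I, gave the widest differences, with a high signal in 1 pool. Its probe (chromosome 3, 129578165 to 129578224, plus strand) had intensities of 10.3, 33.9, 3147 and 16.0 before scaling. The signals were 0.0160, 0.0522, 2.40 and 0.0137, and the values of the Pla2g3+/+ vehicle and Pla2g3-/- AOM pools were not well above background. A dim side was replaced by the floor of its array, the smallest scaled value among detected probes, unless the dim spot itself read higher, so each Cfi fold is a bound. Cfi was at least 164-fold lower in the Pla2g3-/- AOM pool than in the Pla2g3+/+ AOM pool, and at least 145-fold higher in the Pla2g3+/+ AOM pool than in the Pla2g3+/+ vehicle pool. Among all genes these ranked 25th lowest of 17194 and 20th highest of 17275. With normexp correction, which compresses dim probes, the log2 ratios were -4.64 and 4.67, in the same directions and smaller. The vehicle arrays also differed, by at least 3.14-fold higher in the Pla2g3-/- pool, but at an intensity of 33.9 with a spot error of 13.3%, and with normexp correction that log2 ratio was 0.52. The contrast of AOM over vehicle in Pla2g3-/- mice, at least 3.57-fold lower, rests on the same dim spot.

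Cfi is made in the liver, so liver markers were set beside it. Of 10 hepatocyte genes, 5 were well above background on the Pla2g3+/+ AOM array. Their summed signal was 8.20 and 12.6 on the vehicle arrays and 15.9 and 8.33 on the AOM arrays. Alb, for albumin, gave 0.0251, 0.666, 2.13 and 0.0104 and so was also highest in the Pla2g3+/+ AOM pool. Ttr, Hpx, Serpinc1 and Trf were the others well above background on that array, and Trf alone gave 12.8 of the 15.9 there. Fga, Fgb, Fgg, Ahsg and Apoh were below background on both AOM arrays. On the Pla2g3-/- vehicle array, 7 of the 10 were past 2-fold higher than on the Pla2g3+/+ vehicle array, with a median log2 ratio of 2.63. The part of these genes in the Cfi values was not tested.

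C3ar1 encodes the receptor of the C3a fragment, found on myeloid cells. Its probe (chromosome 6, 122798222 to 122798281, minus strand) was dim, with signals of 0.0522, 0.0597, 0.153 and 0.0462, and spot errors from 10.3% to 14.7%. The Pla2g3+/+ AOM pool was high and the other 3 lay near each other. C3ar1 was 3.32-fold lower in the Pla2g3-/- AOM pool than in the Pla2g3+/+ AOM pool, and 2.94-fold higher with AOM than with vehicle in Pla2g3+/+ mice. With normexp correction those log2 ratios were -0.73 and 0.76 and no longer past 2-fold. AOM over vehicle in Pla2g3-/- mice had a log2 ratio of -0.37, which turned to 0.48 without scaling.

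**Figure D2:**
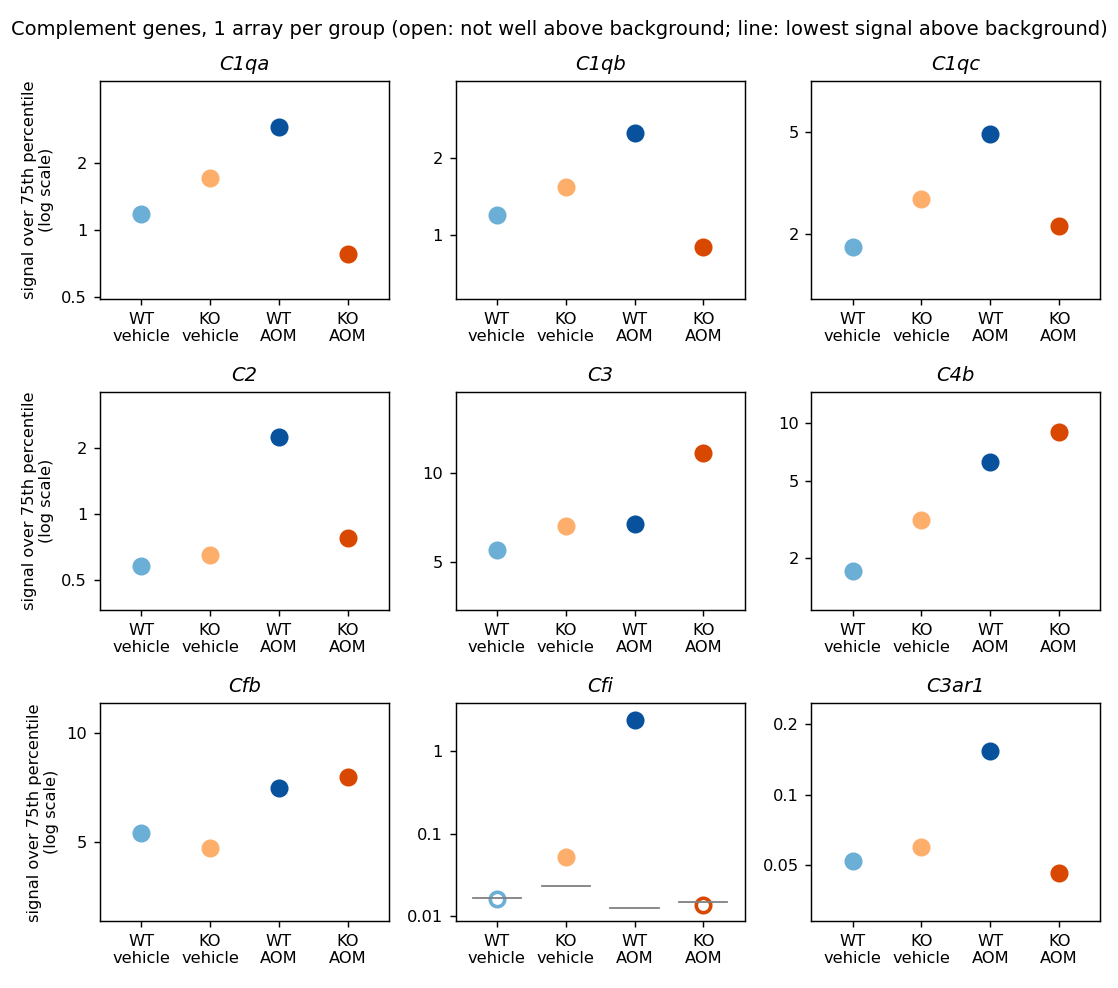
Signal of the 9 complement genes on the 4 arrays, as intensity over the 75th percentile of the array on a log axis with its own range in each panel; each point is 1 pool, open points were not well above background, and grey lines in the Cfi panel mark the lowest signal well above background on each array. C1qa, C1qb, C1qc, C2, Cfi and C3ar1 are highest in the Pla2g3+/+ AOM pool, whereas C3, C4b and Cfb are highest in the Pla2g3-/- AOM pool.

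Counted together, 6 of the 9 genes were over 2-fold lower in the Pla2g3-/- AOM pool than in the Pla2g3+/+ AOM pool and 0 were higher, while 12.9% of 17194 genes were over 2-fold lower and 15.1% higher. The 6 were the C1q chains, C2, Cfi and C3ar1, and the median log2 ratio of the 9 was -1.48, beside 0.03 for all genes. C3, C4b and Cfb had log2 ratios of 0.79, 0.52 and 0.10. In Pla2g3+/+ mice, 7 of the 9 were over 2-fold higher after AOM, all but C3 and Cfb, and 0 were lower, while of 17275 genes 15.1% were higher and 22.4% lower. Their median log2 ratio was 1.46, beside -0.17 for all genes.

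In Pla2g3-/- mice, AOM over vehicle was past 2-fold higher for C4b only, and past 2-fold lower for C1qa and Cfi, of which neither passed without scaling or with normexp correction. Of 16514 genes, 9.65% were higher and 15.1% lower. The median of the 9 was -0.34, which turned to 0.51 without scaling. With vehicle, Cfi was the single member past 2-fold between genotypes, in a comparison where 3.24% of 16391 genes were past 2-fold, 1.92% higher and 1.32% lower. C4b, C1qc and C1qa, with log2 ratios of 0.87, 0.61 and 0.53, lay above the 95th percentile of all genes there, at 0.52. The comparisons share arrays, so the 4 sets of ratios are not independent of each other.

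**Figure D3:**
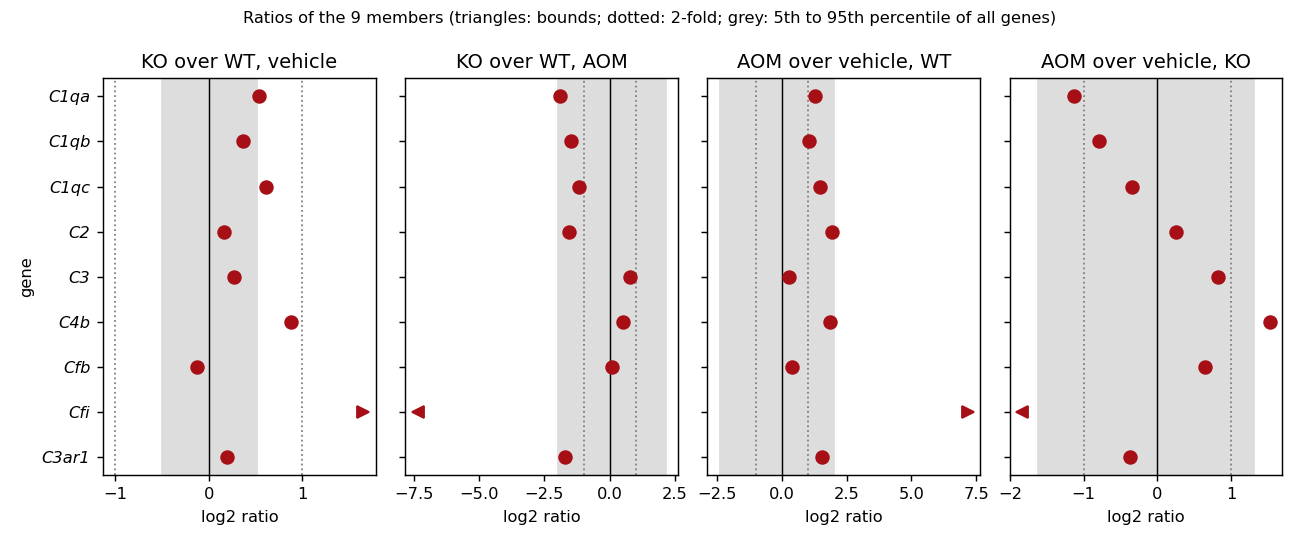
Log2 ratios of the 9 complement genes in the 4 comparisons; points are ratios, triangles are bounds, dotted lines mark 2-fold, and the grey band runs from the 5th to the 95th percentile of all genes. Between the AOM pools the C1q chains, C2 and C3ar1 lie between -1.89 and -1.19, with Cfi at -7.36, while C3, C4b and Cfb lie between 0.10 and 0.79.

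The one fit that left a residual degree of freedom added treatment and genotype over the 4 arrays in limma and asked for changes alike in both. At an adjusted p of 0.05 it called 0 of 17876 genes for either term, and 2409 genes for treatment and 215 for genotype had an unadjusted p under 0.05. Among the 9, the smallest value was that of C4b for AOM, with a log2 change of 1.70 and an adjusted p of 0.368 by limma. The fit cannot test whether genotype differences depend on treatment.

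The rest of the complement system was read from 47 listed genes, 46 of them on the array. Of 38 with a value between the AOM pools, 7 were over 2-fold higher in Pla2g3-/- and 10 lower, with a median log2 ratio of -0.25. Among all genes, 15.1% were higher and 12.9% lower in that comparison. In Pla2g3+/+ mice, 12 of 39 were over 2-fold higher with AOM and 15 lower, with a median of 0.14. There, 15.1% of all genes were higher and 22.4% lower. The counts ran both ways, and the genes are given by role below.

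The C1 proteases act next after C1q. C1ra, C1rb and C1s1, the genes for C1r and C1s, had log2 ratios of AOM over vehicle of 1.49, 1.39 and 1.58 in Pla2g3+/+ mice, the one of C1rb being 0.81 with normexp correction. Their log2 ratios between the AOM pools were -0.28, -0.66 and -0.66, all short of 2-fold. In the lectin route, Fcna, for ficolin A, was higher in the Pla2g3-/- AOM pool by a log2 ratio of 1.44, and the collectin gene Colec11 lower by -1.19, and neither passed 2-fold with normexp correction.

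In the alternative route, Cfd, for factor D, gave 7.25, 19.2, 0.0193 and 1.99. It was near the floor in the Pla2g3+/+ AOM pool and highest in the Pla2g3-/- vehicle pool. Its log2 ratio was 6.69 between the AOM pools and -8.55 for AOM over vehicle in Pla2g3+/+ mice. Fat cells make factor D, and the 10 adipocyte markers summed to 25.6 and 48.1 on the vehicle arrays and 2.38 and 7.71 on the AOM arrays. Cfd is among them and was the largest on both vehicle arrays, so these sums are not independent of it. The part of the other markers in the Cfd values was not tested. Cfp, for properdin, had log2 ratios of 1.49 with AOM in Pla2g3+/+ mice and -0.87 between the AOM pools.

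Regulators were spread widely. Clu, for clusterin, which blocks the terminal complex, gave 7.48, 7.48, 99.9 and 3.64 and was 13.4-fold higher with AOM in Pla2g3+/+ mice and 27.5-fold lower in the Pla2g3-/- AOM pool. Serping1, for the C1 inhibitor, had a log2 ratio of AOM over vehicle of 1.09 in Pla2g3+/+ mice. Cd59a, a membrane inhibitor of the terminal complex, went the other way, with -1.99 for AOM in Pla2g3+/+ mice and 2.37 between the AOM pools. Cpn1 had -2.39 between the AOM pools, Vtn 1.76 and Cpn2 a bound of 2.21, the last 2 on dim probes that did not pass 2-fold with normexp correction. Of 14 regulators with a value between the AOM pools, 3 were higher and 2 lower past 2-fold, while 15.1% and 12.9% of all genes were. In Pla2g3+/+ mice, 3 of 14 were over 2-fold higher with AOM and 6 lower, among the 6 Cd59a, Cpn1, Cpn2 and Vtn. There 15.1% of all genes were higher and 22.4% lower. The median of the regulators was -0.34, which turned to 0.68 without scaling.

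Of 9 receptor genes, 6 were over 2-fold lower in the Pla2g3-/- AOM pool, with a median log2 ratio of -1.64. Itgax and Itgb2, the chains of complement receptor 4, had -2.95 and -1.93. The C5a receptor genes C5ar1 and C5ar2 had -1.78 and -1.05, Cd93 had -1.64 and Cr2, a complement receptor gene of B cells, had -1.64. Itgax, Itgb2, C5ar1 and Cd93 were also higher with AOM in Pla2g3+/+ mice, with log2 ratios of 2.66, 1.74, 3.06 and 2.95. The 3 probes of Itgam disagreed in direction, so no direction is read for the gene. Its brightest probe still enters the counts, the medians and the plot, at 1.08 between the AOM pools. That probe had -1.65 for AOM over vehicle in Pla2g3+/+ mice. The ratios of C5ar1, C5ar2 and Cr2 between the AOM pools were short of 2-fold with normexp correction, at -0.89, -0.59 and -0.48, and that of C5ar2 also with median scaling, at -0.98.

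In the terminal pathway, C8a, C8b and C9 were below background on all arrays, and Hc, the gene for C5, was at least 15.7-fold lower with AOM in Pla2g3+/+ mice, a log2 ratio that was -1.52 with normexp correction. Hc was also 7.56-fold lower with AOM in Pla2g3-/- mice, a log2 ratio that was -1.31 with normexp correction. C6 had a bound of -1.44 between the AOM pools and Hc one of 1.08, both from dim spots. With vehicle, 4 genes from the whole list of other complement genes were past 2-fold between genotypes, and are named here after their values were seen. Of 38 with a value, 3 were higher and 1 lower, while 1.92% and 1.32% of 16391 genes were. Of the terminal genes, 0 were past 2-fold there. Cfd was higher in the Pla2g3-/- pool under each scaling. C5ar1 and Mbl2, the latter a bound from a dim spot, were higher too, but fell short with normexp correction, at log2 ratios of 0.55 and 0.86. C4bp was lower, but short of 2-fold at -0.97 with median scaling, -0.98 with quantile normalization and -0.82 with normexp correction.

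**Figure D4:**
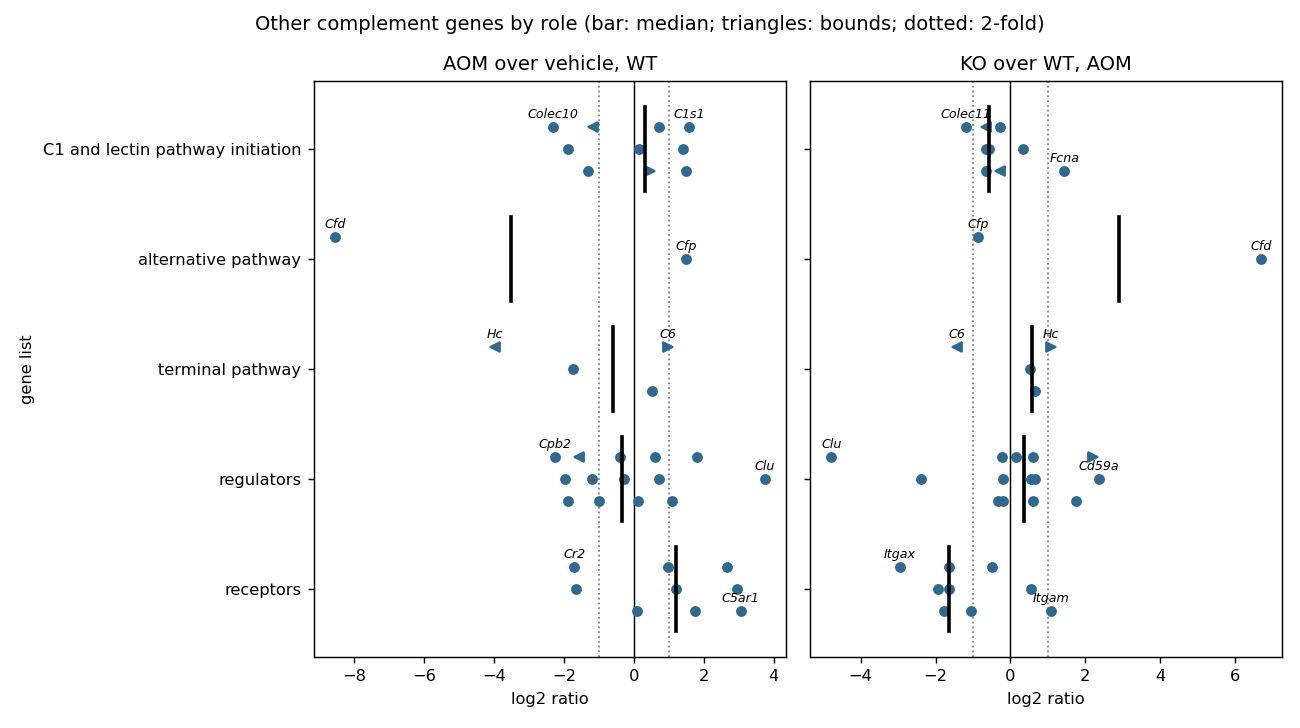
Log2 ratios of the other complement genes by role, for AOM over vehicle in Pla2g3+/+ mice (left) and Pla2g3-/- over Pla2g3+/+ after AOM (right); points are genes, triangles bounds, bars medians and dotted lines 2-fold, with the lowest and highest gene of each role named. The receptors have medians of 1.19 and -1.64, and Clu reaches 3.74 and -4.78.

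The pools also differed in cell markers, and in bulk tissue fewer cells of a type and less RNA per cell cannot be told apart. Of 12 macrophage markers, 11 had a value, Cd163 being below background on every array. Of these, 9 were over 2-fold lower in the Pla2g3-/- AOM pool than in the Pla2g3+/+ AOM pool and 1, Mertk, higher, with a median log2 ratio of -1.40, beside -1.48 for the median C1q chain. In Pla2g3+/+ mice 8 were over 2-fold higher with AOM and the median was 1.22, beside 1.30 for C1q. The summed signal of the list was 17.9 and 22.6 on the vehicle arrays and 35.1 and 14.2 on the AOM arrays, the order of C1qa and C1qb. With vehicle the macrophage median was 0.64 and the C1q median 0.53, both higher in the Pla2g3-/- pool. Csf1r, the brightest marker of the list, was 2.16-fold lower in the Pla2g3-/- AOM pool.

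C3, C4b and Cfb did not have the order of the macrophage sums. Neither did C1qc and C2, which were lowest in the Pla2g3+/+ vehicle pool. Fibroblast markers, which include collagen genes, summed to 42.1 and 47.6 with vehicle and to 118 and 90.6 after AOM, and with AOM 5 of 10 were over 2-fold higher and 2 lower in Pla2g3+/+ mice, the 2 being Fbln1 at -1.27 and Mfap5 at -3.69, against 4 higher and 0 lower in Pla2g3-/- mice. Epithelial markers summed to 972 and 984 with vehicle and to 522 and 832 after AOM. Neutrophil markers had a median of -2.53 between the AOM pools, and Wnt target genes of colon tumors -4.29, with 10 of 10 over 2-fold lower in Pla2g3-/-. With normexp correction those medians were -0.97 and -2.80. Smooth muscle genes ran the opposite way, with a median of 4.15, and their summed signal was 671 and 709 with vehicle and 42.5 and 651 after AOM. Colonocyte genes had a median of 2.24. The Pla2g3+/+ AOM pool thus differed from the other 3 in the markers of several tissues at once, the part of these markers in the complement values was not tested, and with 1 pool per group tissue make-up and genotype cannot be told apart.

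**Figure D5:**
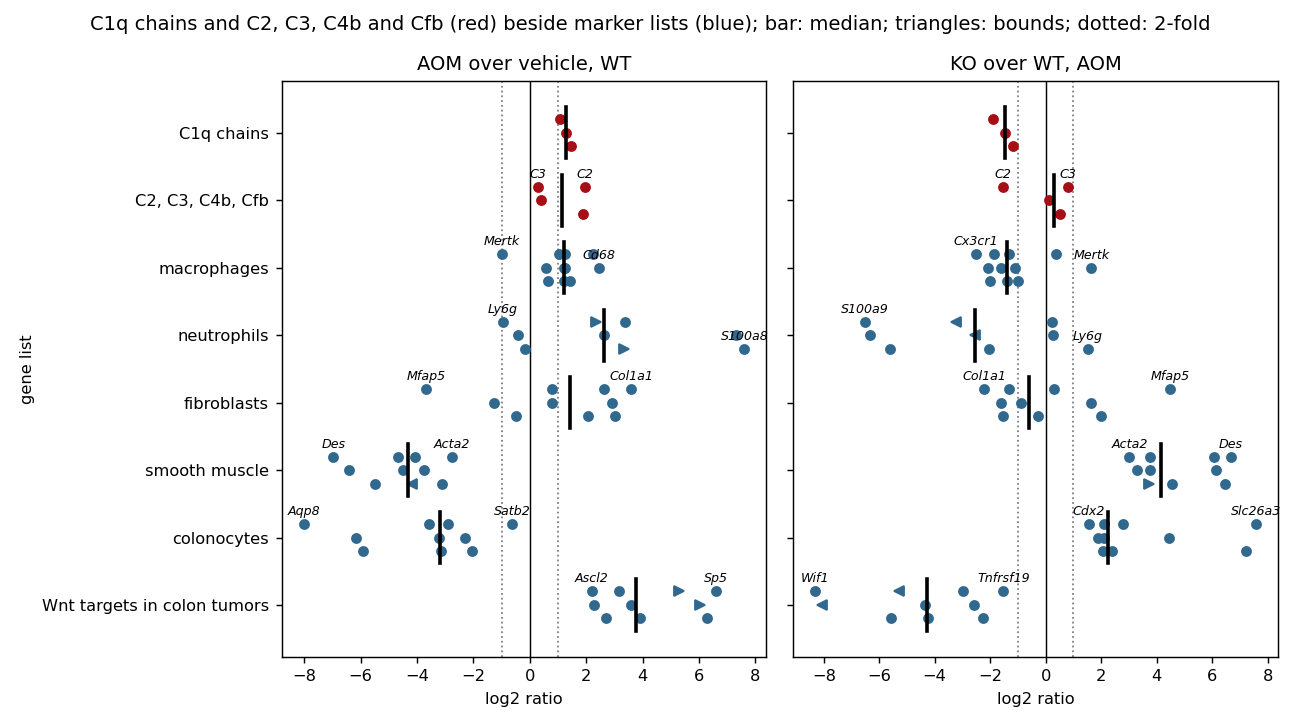
Log2 ratios of the C1q chains and of C2, C3, C4b and Cfb (red) beside marker lists (blue), for AOM over vehicle in Pla2g3+/+ mice (left) and Pla2g3-/- over Pla2g3+/+ after AOM (right); points are genes, triangles bounds, bars medians and dotted lines 2-fold. The C1q and macrophage medians lie at 1.30 and 1.22 on the left and at -1.48 and -1.40 on the right.

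Genes of most like pattern were sought among 14780 other genes well above background on all 4 arrays, by the Euclidean distance between log2 profiles centred on their mean. For the mean of the C1q chains the nearest were Atf7, Sytl3, Pidd1, Rarres1 and Bub1, at distances from 0.07 to 0.15. For C3 they were Pi4ka, D430042O09Rik, Sec22c, Tsc1 and Wnt4, at 0.06 to 0.10. With 4 arrays, such nearness is a description of 4 values.

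The sequences before the start sites of members were available for 4 of the 9, from the RefSeq promoter table of GRCm38.p6. Those of C1qb and C1qc are shown because the pair moved together, and that of C3 because it did not move with them. Each is 250 bases on the strand of the gene, with matches to GAGGAA, the core read by the myeloid factor PU.1, in capitals; its reverse complement is TTCCTC.
C1qb, chr4:136886201-136886450, minus strand: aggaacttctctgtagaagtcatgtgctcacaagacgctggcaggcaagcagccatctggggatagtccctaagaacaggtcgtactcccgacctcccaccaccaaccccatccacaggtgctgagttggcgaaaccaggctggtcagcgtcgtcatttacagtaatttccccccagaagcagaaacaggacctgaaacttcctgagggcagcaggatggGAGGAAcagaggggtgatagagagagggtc
C1qc, chr4:136892915-136893164, minus strand: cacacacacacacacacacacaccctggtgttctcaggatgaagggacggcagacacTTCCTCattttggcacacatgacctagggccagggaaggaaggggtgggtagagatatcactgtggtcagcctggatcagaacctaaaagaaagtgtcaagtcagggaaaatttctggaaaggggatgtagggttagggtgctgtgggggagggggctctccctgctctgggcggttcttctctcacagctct
C3, chr17:57228137-57228386, minus strand: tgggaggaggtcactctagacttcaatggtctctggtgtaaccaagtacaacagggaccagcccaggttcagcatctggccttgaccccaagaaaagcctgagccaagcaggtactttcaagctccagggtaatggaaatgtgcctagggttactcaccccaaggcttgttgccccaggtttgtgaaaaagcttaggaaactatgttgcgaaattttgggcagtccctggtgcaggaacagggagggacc

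GAGGAA was found at position -30 from the start site of C1qb, and on the opposite strand at position -193 of C1qc. It occurs on either strand in 28.3% of 32851 promoter windows of 300 bases, which add 50 bases after the start. The other patterns searched on both strands were TTCNNNGAA of STAT type, found in 8.30% of all windows, a spaced repeat of interferon response element type in 3.44%, GGGNNTTCC of kappa B type in 5.82% and TTNNGCAAT of C/EBP type in 2.18%. None of these 4 occurred in the windows of C1qb, C1qc, C3ar1 or C3, and GAGGAA did not occur in those of C3ar1 or C3. These letters alone say nothing on the binding of a factor.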

How the data were processed

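RNA pooled within each group was labelled (27.7 ng) and read on 1 one-color (Cy3) Whole Mouse Genome array per group, all on 1 slide. The authors deposited spot intensity as read by Agilent Feature Extraction 11.5.1.1, with background subtraction and spatial detrending within arrays and no scaling across them. A deposited p-value per spot tests equality with background, and the flag for signals well above background was used as deposited. The deposited series table is a ratio, the intensity over a constant per array, and was used as an alternative.

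From these files, control and outlier spots were dropped (5 member spots over the 4 arrays), deposited intensities were taken to log2, averaged over spots of a probe and scaled by the 75th percentile. A RefSeq table of GRCm38.p6, taken for names alone, named 31367 of 39423 probes. Coordinates come from the array files and are on mm9. The brightest probe stood for its gene. Ratios are differences between 2 arrays, read against 2-fold. The number of arrays limits the precision. The additive fit used limma 3.58.1 in R 4.3.3 with Benjamini-Hochberg adjustment, and it and the ratio rule were tested on simulated data. Tables and plots used Python 3.11.15, pandas 2.3.3, numpy 2.4.6, scipy 1.17.1 and matplotlib 3.10.9.

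The members, lists and tests were chosen with earlier results of these data known. Named genes were all members and, of the other lists, those past 2-fold between the AOM pools or between AOM and vehicle in Pla2g3+/+ mice, the largest first, the brightest gene of a list discussed, and the 5 genes of most like pattern. Alternatives were scaling by the median, no scaling, quantile normalization, normexp with an offset of 50, other handling of dim probes, other probes of a gene, the deposited table and, in limma, an intensity trend. Marker lists for T cells, B cells, interferon response, cytokines, acute phase genes and exocrine pancreas were also read. One gene of the wider complement list is counted but not reported by name here.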

Additional observations from a re-analysis of the deposited data

Results flagged for a closer look

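For 7 of the 9 genes the genotype ratio had opposite signs under the 2 treatments, and for 5 of them AOM over vehicle had opposite signs in the 2 genotypes. With 1 array per group none of these differences could be tested. The share of all genes with opposite signs was not counted, so the counts of 7 and 5 have nothing to be read against. The log2 ratio of Pla2g3-/- over Pla2g3+/+ was lower after AOM than with vehicle by a difference of -2.43 for C1qa, -1.85 for C1qb, -1.80 for C1qc, -1.70 for C2 and -1.92 for C3ar1. For Cfi the difference was -9.01, between 2 bounds. For Cfb it was 0.24, between log2 ratios of -0.13 and 0.10, and the second of these turned sign with scaling. The log2 ratio of AOM over vehicle was likewise lower in Pla2g3-/- than in Pla2g3+/+ mice by -2.43 for C1qa, -1.85 for C1qb, -1.80 for C1qc, -9.01 for Cfi and -1.92 for C3ar1, which is the same difference taken from the other side. Without scaling, C1qb, C1qc and C3ar1 no longer had opposite signs in the 2 genotypes.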

How the results depend on the processing

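No paired analysis was possible because each group is 1 array, and no array could be left out. Of the ratios of single members under the alternatives, 342 kept their side of 2-fold, 7 fell short of 2-fold, 7 passed it and 0 reversed past it. All 36 ratios kept their side under each of the other choices of probe, the floor after scaling, no filter on dim probes and the deposited table. Those alternatives could move few members, since 8 of the 9 have 1 probe and only Cfi was below background on any array. The deposited table divides by a constant close to the 75th percentile. The 342 include some ratios that turned sign while short of 2-fold. Without scaling, these were C1qb, C1qc and C3ar1 for AOM over vehicle in Pla2g3-/- mice. Cfb between the AOM pools turned sign without scaling, with quantile normalization and with normexp. The count of members over 2-fold higher with vehicle in Pla2g3-/- was 0 with normexp and quantile normalization and 0 among genes detected on both arrays. For AOM over vehicle in Pla2g3-/- mice, the count higher was 4 without scaling, 2 with quantile normalization and 2 with normexp, and the count lower was 0 without scaling, 0 with normexp and 1 among genes detected on both arrays. Without scaling, the 4 were C2, C3, C4b and Cfb, the last 3 with log2 ratios of 1.67, 2.37 and 1.49, while C1qa was at -0.28 and Cfi at -0.99. In Pla2g3+/+ mice C3 and Cfb reached 1.31 and 1.43. With normexp, C1qa was at -0.92 and Cfi at -0.50 in Pla2g3-/- mice, and C3 at 1.14. Among the other complement genes, the vehicle genotype count higher was 1 with normexp and 5 with no filter on dim probes, and the count lower was 0 with median scaling, 0 with quantile normalization and 0 with normexp. Between the AOM pools, normexp gave 3 higher and 5 lower. For AOM over vehicle in Pla2g3+/+ mice, no scaling gave 22 higher, 4 lower and a median of 1.16, and normexp gave 8 lower. In Pla2g3-/- mice, no scaling gave 16 higher and 6 lower, and normexp gave 2 higher and 5 lower. By construction, no scaling moves the median of all genes for AOM over vehicle from -0.17 to 0.87 in Pla2g3+/+ and from -0.08 to 0.76 in Pla2g3-/- mice. The share of higher genes among those past 2-fold then went from 40.3% to 86.3% and from 39.0% to 91.1%. It was 49.6% and 48.6% with quantile normalization, which gives all arrays the same distribution, and 50.7% and 50.6% with normexp followed by it. The count of all genes past 2-fold between the vehicle arrays was 110 higher and 84 lower with normexp, against 315 and 216. The limma fit called 0 genes for either term with an intensity trend and with quantile normalization as well. The causes were not tested. Depth has no meaning here, and signal over background limits Cfi, C3ar1 and the dim genes of the other lists.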

Other observations

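Genes that respond to inflammation were read beside complement. All 8 inflammatory cytokine genes were over 2-fold lower in the Pla2g3-/- AOM pool than in the Pla2g3+/+ AOM pool, 6 of them as bounds, with a median log2 ratio of -2.89, and Il1b was the largest at -6.17. With normexp correction, which compresses dim probes, that median was -0.94, short of 2-fold. Of 10 acute phase and NF-kB target genes, 5 were lower and 2 higher there. Saa3, Lcn2 and Hp had log2 ratios of -7.50, -3.97 and -3.63, whereas the neighbouring Saa1 and Saa2 had 2.01 and 2.15. Of 11 interferon response genes, 3 were over 2-fold lower and 0 higher, with a median of -0.91. With AOM over vehicle in Pla2g3+/+ mice, 3 of the 11 were higher and 4 lower, and the median of -0.54 turned to 0.48 without scaling. T and B cell markers had medians of -1.48 and -2.42 between the AOM pools, which were -0.89 and -0.65 with normexp correction. Exocrine pancreas genes stood out on the Pla2g3-/- vehicle array, with 8 of 10 over 2-fold higher than on the Pla2g3+/+ vehicle array and a median of 4.98, which was 3.12 with normexp correction.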
